A study of Mus musculus with 4 samples.

Results

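Transcripts of the CD3 and zeta chains and of the proximal T cell receptor (TCR) signalling proteins were compared between control and Cxxc1 knockout (KO) double-positive (DP) thymocytes. The genes were chosen by symbol, as Cd3e, Cd3d, Cd3g, Cd247, Lck, Fyn, Zap70, Lat and Lcp2, and made up 9 of the 35976 symbols in the count files. All 9 passed the filter on low counts, which kept 20389 genes. Cells had been sorted from mouse thymus as CD24+ TCRb- CD4+ CD8a+, so the gate itself selects cells with little TCRb on the surface, where CD3 chains and TCR are displayed together. Control mice were Cxxc1 +/+ with Lck-cre, and KO mice were Cxxc1 F/F (both alleles floxed) with Lck-cre. Both genotypes thus carried the Cre transgene, which an Lck promoter drives in developing T cells. There were 2 bulk RNA-seq libraries per genotype, the labels give neither the age nor the sex of the mice, and double-negative (DN) thymocytes were not analysed here. Whether the libraries stem from different mice is not stated, so the p-values reflect only how these libraries spread, and that spread may be technical.

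The TCR has no signalling domain of its own. It is assembled with the CD3 epsilon, delta and gamma chains, which pair as delta-epsilon and gamma-epsilon dimers, and with a dimer of zeta chains. The cytoplasmic tails of these chains carry tyrosine motifs that the Src-family kinases Lck and Fyn phosphorylate, the kinase ZAP-70 docks on the phosphorylated motifs, and ZAP-70 then phosphorylates the adaptors LAT and SLP-76, on which downstream enzymes gather. In DP thymocytes this pathway reads self peptide-MHC during positive selection. Cxxc1 encodes a zinc finger protein that recognises CpG sites free of methylation and works within complexes that place methyl groups on lysine 4 of histone H3.

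Cd3e, Cd3d and Cd3g lie in a cluster of 40.1 kb on chromosome 9 (GRCm38.p6, RefSeq spans). Cd3g (44969572 to 44980431, minus strand) and Cd3d (44981769 to 44987052, plus strand) are transcribed away from each other, from 5′ ends 1338 bases apart, and Cd3e (44998735 to 45009663, minus strand) lies beyond the 3′ end of Cd3d. The promoter windows of these 3 genes are shown because Cd3d, the gene of the 9 that passed the test, lies between the other two, and CpG dinucleotides, the site that the Cxxc1 protein binds, are in capitals. Each window runs from 250 bases before to 50 bases after the RefSeq start of transcription, is 300 bases long, and is written 5′ to 3′ on the gene's own strand (RefSeq, GRCm38.p6). The Cd3d window is chr9:44981536-44981835 (plus strand), the Cd3g window chr9:44980382-44980681 (minus strand) and the Cd3e window chr9:45009562-45009861 (minus strand).
Cd3d: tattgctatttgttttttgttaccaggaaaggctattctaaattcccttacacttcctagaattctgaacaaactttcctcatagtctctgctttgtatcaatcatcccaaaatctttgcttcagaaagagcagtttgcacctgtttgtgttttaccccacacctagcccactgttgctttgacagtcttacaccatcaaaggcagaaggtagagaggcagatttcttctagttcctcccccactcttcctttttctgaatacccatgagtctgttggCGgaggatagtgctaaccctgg
Cd3g: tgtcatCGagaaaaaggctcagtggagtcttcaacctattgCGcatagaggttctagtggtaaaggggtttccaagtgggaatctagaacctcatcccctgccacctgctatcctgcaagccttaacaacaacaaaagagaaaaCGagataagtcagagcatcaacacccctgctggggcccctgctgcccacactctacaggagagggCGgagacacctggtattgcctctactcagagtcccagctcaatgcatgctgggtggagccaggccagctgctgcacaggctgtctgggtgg
Cd3e: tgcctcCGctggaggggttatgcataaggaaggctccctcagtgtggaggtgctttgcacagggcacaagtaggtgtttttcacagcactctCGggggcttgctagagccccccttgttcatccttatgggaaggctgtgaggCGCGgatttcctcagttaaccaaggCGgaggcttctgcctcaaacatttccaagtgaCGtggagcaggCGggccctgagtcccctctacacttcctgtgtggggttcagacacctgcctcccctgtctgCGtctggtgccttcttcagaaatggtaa
The Cd3d window held 1 CpG, the Cd3g window 4 and the Cd3e window 8.

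All 9 genes had an entry in the promoter table, with 12 windows in all, since Lck has 2 annotated starts and Zap70 has 3. CpG counts were 3 for Cd247, 7 and 5 for the upstream and downstream starts of Lck, 31 for Fyn, 8, 5 and 9 for the starts of Zap70, 10 for Lat and 0 for Lcp2. Of the 12 windows, 11 lay below the median of 15 CpGs over the 18432 windows of tested genes, and the Fyn window alone lay above it. Over all 32851 windows in the table the median was 7. Searched on both strands, the E-box CAGGTG, a sequence that E proteins such as E2A and HEB can bind, was found in 8 of the 12 windows, belonging to 6 of the 9 genes, and in 20.2% of all windows. It was present in the windows of Cd3d, Cd3g and Cd3e. The Ets-type sequence GGAAGT was in 6 of the 12 windows and 23.8% of all windows, and the Runx-type sequence TGTGGT in 3 of the 12 and 16.8% of all windows. No matches of these 3 longer sequences overlapped (0 pairs). Such matches describe letters in a window and do not show binding.

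Libraries held 12150508 and 34820446 gene counts for control 1 and control 2, and 36243182 and 33544428 for KO 1 and KO 2, and levels are given as CPM, the counts of a gene scaled to a fixed library total, with TMM-scaled library sizes. The 9 genes together took 0.308% to 0.427% of each library's counts, and the lowest raw count of any of them was 1423, for Zap70 in control 1. Cxxc1 itself had 111 and 53.5 CPM in the controls, against 35.7 and 39.4 CPM in the KO libraries (log2 fold change -1.12 ± 0.34 SE, adjusted p = 0.199; DESeq2 adjusted p = 0.0345), and gene-level counts include exons outside any deleted part. Leaving out control replicate 1 gave a Cxxc1 estimate of -0.51 (edgeR, adjusted p = 0.566), and leaving out control replicate 2 gave -1.56 (adjusted p = 0.00874). The labelled cell type was checked against its markers. Of 12 DP markers, 4 fell (Cd4, Cd8a, Dntt and Ets2) and 0 rose, where 0.181% of all tested genes fell and 0.270% rose. At an unadjusted p below 0.05 with edgeR 8 of the 12 were lower and 0 higher, against 6.91% and 6.97% of all tested genes. DESeq2 called 7 lower and 0 higher, against 2.85% and 2.34% of the genes it tested. The summed level of the 12 was 13538 and 17518 CPM in the controls, against 6360 and 9278 CPM in the KO libraries. The sum was thus high in every library, and Rag1 was its largest part. In the order control 1, control 2, KO 1 and KO 2, Rag1 was at 4967, 7055, 2997 and 4488 CPM. Levels of the coreceptor genes, in that order, were 893, 896, 142 and 277 CPM for Cd4 and 1258, 1811, 258 and 478 CPM for Cd8a. For Cd8b1 they were 1010, 1297, 231 and 528 CPM. KO libraries lay below the controls for 9 of the 12 (24.0% of all tested genes) and overlapped them for 3 (Aqp11, Rag2 and Cd24a). The median log2 fold change of the 12 was -1.15. The most abundant, Rag1, had 6011 ± 1476 CPM in the controls and 3743 ± 1054 CPM in the KO (SD, n = 2) and did not pass the test (edgeR, adjusted p = 0.357). Of 8 tested DN markers, 3 rose (Il2ra, Dtx1 and Notch3) and 0 fell. With edgeR 5 were higher and 1 lower at an unadjusted p below 0.05, and DESeq2 called 5 higher and 1 lower. The lower one with edgeR, named after its values were seen, was Cd44 (log2 fold change -1.30 ± 0.32, adjusted p = 0.124). KO libraries lay above the controls for 5 of the 8 (22.8% of all tested genes) and below for 2 (24.0%). The 10 listed ones summed to 185 and 144 CPM in the controls against 889.6 and 499 CPM in the KO. Of that sum, Notch3 made up 91.1 and 71.7 CPM against 408 and 262 CPM. Of 7 tested single-positive (SP) markers 1 rose, Il7r, and 0 fell, while DESeq2 called 2 of them lower and 1 higher (unadjusted p below 0.05 with edgeR, 3 lower and 1 higher). KO libraries lay below the controls for 6 of the 7 (24.0% of all tested genes) and above for 1 (22.8%), with a median log2 fold change of -1.17. The 8 listed ones summed to 220.1 and 218 CPM in the controls against 162 and 144 CPM in the KO. Summed levels over the 4 libraries were 10.1 to 16.6 CPM for 7 B cell markers and 31.1 to 58.7 CPM for 11 myeloid and dendritic markers. For 9 gamma-delta, NK and innate lymphoid markers (Klrd1 at 0) they were 110.5 to 128 CPM, of which Gata3 alone made up 103 to 110 CPM. The 6 thymic epithelial markers summed to 5.13 and 8.63 CPM in the controls against 11.9 and 15.7 CPM in the KO. Of that sum, Epcam made up 1.09 and 4.88 CPM against 11.6 and 15.1 CPM. Foxn1, Krt8 and Psmb11, at 0 to 1.60 CPM, were lower in both KO libraries than in both controls. No member of these lists passed edgeR's test (2 lower and 2 higher at an unadjusted p below 0.05, and 1 higher by DESeq2). Erythroid markers (6) summed to 8.66 and 14.0 CPM in the controls, against 38.0 and 26.2 CPM in the KO, where Hba-a1 rose from 0 counts. Hba-a2, Hbb-bs and Hbb-bt were likewise at 0 counts in both controls and detected in both KO libraries. At an unadjusted p below 0.05 with edgeR 4 of the 6 were higher, and DESeq2 called 3 higher. Alas2 made up 8.24 and 14.0 CPM of the control sums, and its libraries overlapped between genotypes. The part of these shifts in the results for the CD3 and signalling genes was not tested, and in sorted bulk RNA fewer cells of a type and less RNA per cell cannot be told apart.

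Across the 9 genes, Cd3d fell, and the other 8 did not pass the test (edgeR's quasi-likelihood test, adjusted p below 0.05 over all 20389 genes). Lower calls made up 0.181% of all tested genes, with 37 genes called lower and 55 higher. That total of 92 was 9 without KO replicate 1, 555 without control replicate 1 and 619 without control replicate 2. The median log2 fold change (KO over control) of the 9 genes was -0.47, against -0.04 for all tested genes. Each KO library lay under each control library for Cd3d, Cd247, Lck, Fyn and Zap70, 5 of the 9, where the share over all tested genes was 24.0%. They lay above both controls for Cd3g, 1 of the 9 (22.8% of all tested genes), and overlapped them for Cd3e, Lat and Lcp2. At an unadjusted p below 0.05, 4 of the 9 were lower (Cd3d, Cd247, Lck and Zap70) and 0 higher, against 6.91% and 6.97% of all tested genes. These genes were chosen with earlier results of these data known, so the counts describe them and are no independent test.

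**Figure D1:**
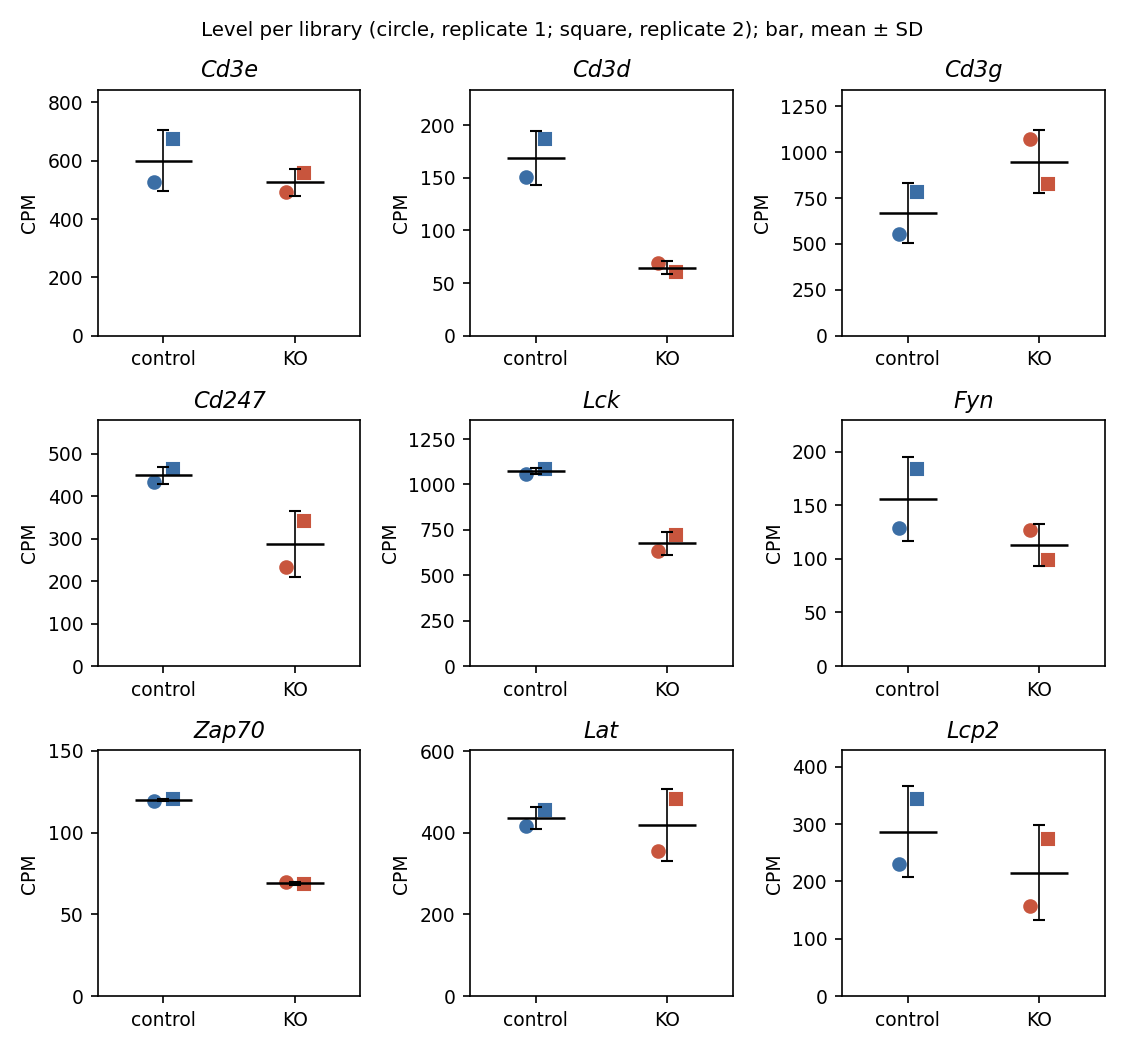
Level of each of the 9 genes in CPM (vertical axes, each from 0) in the 2 control and 2 KO libraries; circles are replicate 1, squares replicate 2, and the bar with whiskers is the mean ± SD. Cd3d at 60.4 and 68.8 CPM in the KO lies well under its control values of 151 and 187 CPM, Cd3g lies above its control values, and the libraries of Cd3e, Lat and Lcp2 overlap.

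Of the 4 signal-transmitting chains Cd3d fell, 2.61-fold, and the other 3 did not pass the test. The log2 fold change was 0.51 for its neighbour Cd3g, -0.19 for its partner Cd3e and -0.64 for Cd247, and the differences between chains were not tested in that fit. Cd3d encodes CD3 delta, which pairs with CD3 epsilon. Its level was 151 CPM in control 1, 187 CPM in control 2, 68.8 CPM in KO 1 and 60.4 CPM in KO 2. The highest KO value was thus below the lowest control value by a wide margin, and the replicates within each genotype were close. The log2 fold change was -1.39 ± 0.23 (95% interval -1.91 to -0.86, adjusted p = 0.0466). The adjusted p lay near the threshold, and the call ended with library totals as the scaling (adjusted p = 0.0509), without KO replicate 1 (log2 fold change -1.45, adjusted p = 0.199) and without KO replicate 2 (-1.29, adjusted p = 0.116). DESeq2 gave -1.40 ± 0.26 (adjusted p = 1.9e-05).

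Cd3g encodes CD3 gamma, which also pairs with CD3 epsilon. It was at 552 and 782 CPM in the controls and at 1071 and 827 CPM in the KO libraries. KO 2 lay only slightly above control 2, so the groups were separate but close. Its log2 fold change of 0.51 ± 0.26 (95% interval -0.09 to 1.10) did not pass the test (adjusted p = 0.440). Its range over the alternatives that left out 1 library was 0.28 to 0.78.

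Cd3e encodes CD3 epsilon, the chain that both dimers share. Its levels were 526 and 674 CPM in the controls, against 494 and 558 CPM in the KO libraries, so that control 1 lay between the KO libraries. This gave a log2 fold change of -0.19 ± 0.24 (95% interval -0.72 to 0.34, adjusted p = 0.799). The interval leaves room for a moderate fall or rise, so these data do not show that Cd3e was unaltered.

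Cd247 encodes the zeta chain (chromosome 1, 165779952 to 165871153, plus strand), which carries more of the tyrosine motifs than any CD3 chain. It was at 434 and 463 CPM in the controls and at 233 and 341 CPM in the KO libraries. Both KO libraries were below both controls, and KO 1 was the lower of them by a large step. A log2 fold change of -0.64 ± 0.25 (95% interval -1.21 to -0.08) did not pass the test (unadjusted p = 0.0300, adjusted p = 0.303). The estimate was -0.36 without KO replicate 1 and -0.94 without KO replicate 2. The Cd247 span overlaps those of Pou2f1 and Gm32999 in the RefSeq table, whose levels were 141 to 212 CPM and 217 to 375 CPM over the 4 libraries. No source used here gives the strand setting of the counting, so reads from the overlapping stretches may not be told apart, and Pou2f1 and Gm32999 had log2 fold changes of -0.37 (adjusted p = 0.516) and -0.39 (adjusted p = 0.544). The same limit holds for Lck, Fyn and Lcp2, whose spans overlap the tested genes Mir8119, Gm16364 and 4930469K13Rik. Those were at 1.15 to 29.1 CPM over the 4 libraries, with log2 fold changes of -1.82, -0.61 and -0.81 that did not pass edgeR's test.

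Ratios between chains within a library do not depend on the scaling between libraries, and gene length cancels when a ratio is compared between libraries. There were 0.287 and 0.277 Cd3d counts per Cd3e count in the controls, and 0.140 and 0.108 in KO 1 and KO 2. Cd3g counts per Cd3e count were 1.05 and 1.16 in the controls and 2.17 and 1.48 in the KO. Cd247 counts per Cd3e count were 0.825 and 0.687 in the controls and 0.472 and 0.612 in the KO. Relative to Cd3e, then, delta and zeta were lower and gamma higher in both KO libraries than in both controls, whatever the scaling. The mean log2 ratio differed between genotypes by -1.20 for Cd3d, 0.70 for Cd3g and -0.49 for Cd247. Each of these had an exact two-sided permutation p = 0.333, the smallest that this test can give for 2 libraries against 2, so it cannot reach 0.05 on the ratios. The pooled SD between replicates, on the log2 scale, was 0.18 for Cd3d, 0.28 for Cd3g and 0.23 for Cd247. For the divergently transcribed neighbours, a ratio chosen after its values were seen, Cd3d counts per Cd3g count were 0.273 and 0.239 in the controls and 0.0643 and 0.0731 in the KO. That is 3.73-fold lower by the mean log2 ratio, with the pooled SD between replicates at 0.13 on the log2 scale, and a ratio within a library shows unequal change, not which gene changed.

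**Figure D2:**
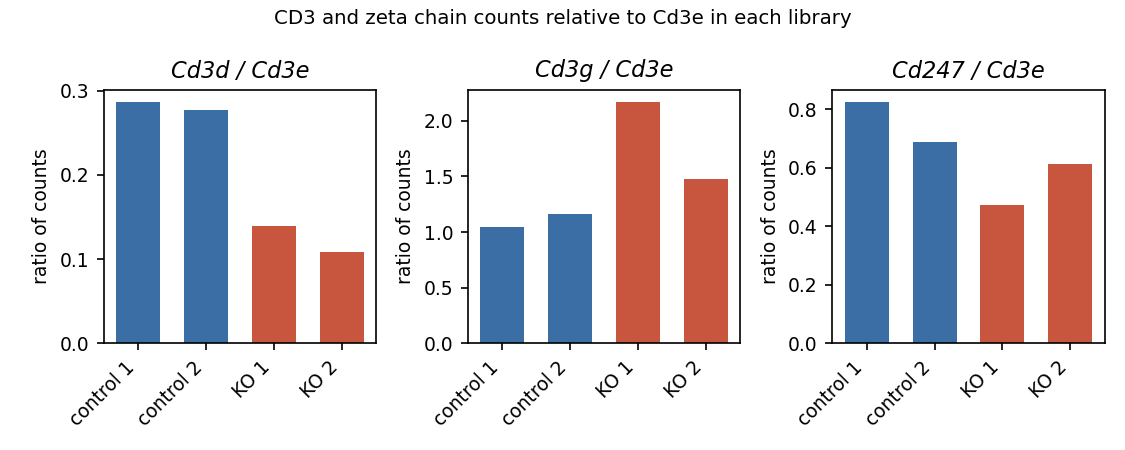
Counts of Cd3d, Cd3g and Cd247 per count of Cd3e (vertical axes, from 0) in each of the 4 libraries. The Cd3d ratio is 0.277 and 0.287 in the controls against 0.108 and 0.140 in the KO, while the Cd3g ratio is higher in both KO libraries, at 1.48 and 2.17.

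Genes around the CD3 cluster were examined in the same fit. Within 100 kb of it 7 other genes were tested, and 0 passed edgeR's test in either direction. At an unadjusted p below 0.05, 3 were higher and 0 lower (6.97% and 6.91% of all tested genes). DESeq2 called 2 higher (Atp5l and Mpzl2) and 0 lower, against 2.34% and 2.85% of the genes it tested. Ube4a, a ubiquitin ligase gene that lies 4.0 kb beyond the 3′ end of Cd3g, was at 125 and 149 CPM in the controls, against 232 and 222 CPM in the KO libraries (log2 fold change 0.73 ± 0.22, adjusted p = 0.202). Atp5l, an ATP synthase subunit gene, had 15.2 and 20.5 CPM against 33.5 and 44.2 CPM (1.12 ± 0.32, adjusted p = 0.180). Mpzl2, an adhesion molecule gene on the Cd3e side, had 2.44 and 0.692 CPM against 40.7 and 12.7 CPM (4.20 ± 0.75, adjusted p = 0.0570). Of the 7 genes, the KO libraries lay above the controls for these 3 (22.8% of all tested genes), the opposite side from Cd3d. They are also the 3 with an unadjusted p below 0.05, so the 2 counts are not independent. For Kmt2a, Mpzl3 and Gm39326 the libraries overlapped. In 1 of the 7, Gm30934, the KO libraries lay below the controls (24.0% of all tested genes). Kmt2a, which encodes a histone H3 lysine 4 methyltransferase, had 0.15 ± 0.25, Mpzl3 0.66 ± 0.81, and the predicted genes Gm39326 and Gm30934 -0.91 ± 0.78 and -2.38 ± 2.02 at a few CPM or less. Of the tested genes here, edgeR called Cd3d alone. Within 100 kb of any of the 9 genes, 44 other genes were tested, with 0 calls by edgeR, 2 lower and 7 higher at an unadjusted p below 0.05, 1 lower and 3 higher by DESeq2, and a median log2 fold change of 0.04.

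**Figure D3:**
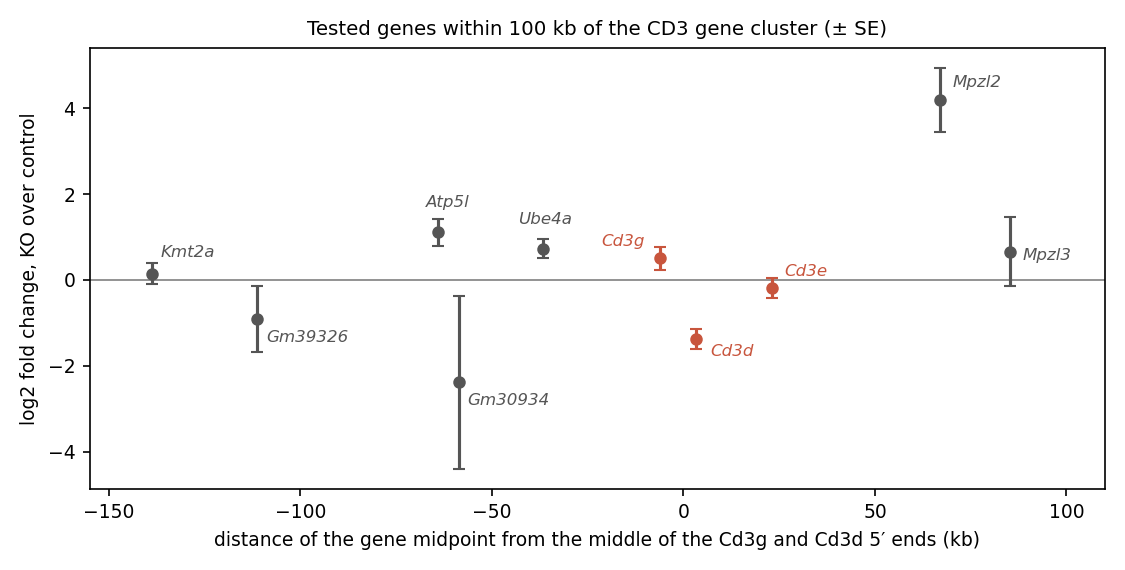
Log2 fold change (KO over control, ± SE) of the tested genes within 100 kb of the CD3 cluster, against the distance of each gene's midpoint from the middle of the Cd3g and Cd3d 5′ ends, in kb; the CD3 genes are in red and the other 7 in grey. Cd3d at -1.39 sits between Cd3g at 0.51 and Cd3e at -0.19, and Ube4a, Atp5l and Mpzl2 lie above 0.

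The kinase genes were each lower in both KO libraries than in both controls (24.0% of all tested genes), Fyn only barely. None of the 3 passed edgeR's test. Lck (chromosome 4, 129548344 to 129573641, minus strand) encodes the kinase that is bound to the CD4 and CD8 coreceptors and phosphorylates the CD3 and zeta tails. It was at 1060.2 and 1084 CPM in the controls and at 632 and 722 CPM in the KO libraries. The controls were nearly equal and the KO libraries were clearly below them. Lck had a log2 fold change of -0.66 ± 0.23 (95% interval -1.17 to -0.15, unadjusted p = 0.0163, adjusted p = 0.244). DESeq2 placed it just past the threshold (-0.68 ± 0.22, adjusted p = 0.0479). Gene-level counts do not separate the transcripts from the 2 Lck promoters.

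Zap70 (chromosome 1, 36761798 to 36782821, plus strand) encodes the kinase that binds the phosphorylated tails. It was at 119.6 and 120.3 CPM in the controls and at 69.6 and 68.4 CPM in the KO libraries, which made it the gene with the closest replicates of the 9. The log2 fold change was -0.80 ± 0.22 (95% interval -1.29 to -0.31, unadjusted p = 0.00503), and it did not pass the threshold over all genes (adjusted p = 0.166). The error in the fit is moderated towards genes of similar abundance and is wider than the spread of Zap70 itself. With DESeq2 the adjusted p was 0.0345 (-0.81 ± 0.26). The estimate stayed between -0.80 and -0.77 whichever library was left out.

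Fyn (chromosome 10, 39369743 to 39565381, plus strand) encodes the other Src-family kinase of T cells, which can act in parallel with Lck. It was at 128 and 184 CPM in the controls and at 127 and 99.0 CPM in the KO libraries. Control 1 and KO 1 were almost level, so the groups barely separated. The estimate was -0.47 ± 0.26 (95% interval -1.05 to 0.11, adjusted p = 0.467), and it was -0.19 without control replicate 2. Fyn counts per Lck count were 0.121 and 0.169 in the controls and 0.201 and 0.137 in the KO, which overlap (exact two-sided permutation p = 0.667).

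The adaptor genes showed no separation between genotypes. Lat (chromosome 7, 126363827 to 126369705, minus strand) encodes the membrane scaffold that ZAP-70 phosphorylates. It was at 417 and 456 CPM in the controls and at 356 and 482 CPM in the KO libraries, so the KO values bracketed the controls. The log2 fold change was -0.06 ± 0.24 (95% interval -0.60 to 0.48, adjusted p = 0.952), and its sign turned without control replicate 2 (0.01) and without KO replicate 1 (0.18). Lcp2 (chromosome 11, 34046928 to 34092281, plus strand) encodes the cytosolic adaptor SLP-76, which joins LAT through a bridging adaptor. It was at 231 and 343 CPM in the controls and at 157 and 274 CPM in the KO libraries. KO 1 was the lowest and KO 2 lay between the controls (log2 fold change -0.41 ± 0.31, 95% interval -1.12 to 0.29, adjusted p = 0.627). The Lcp2 estimate was -0.03 without KO replicate 1 and -0.87 without KO replicate 2. Lcp2 counts per Lat count were 0.554 and 0.753 in the controls and 0.440 and 0.570 in the KO, which overlap (exact two-sided permutation p = 0.667).

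**Figure D4:**
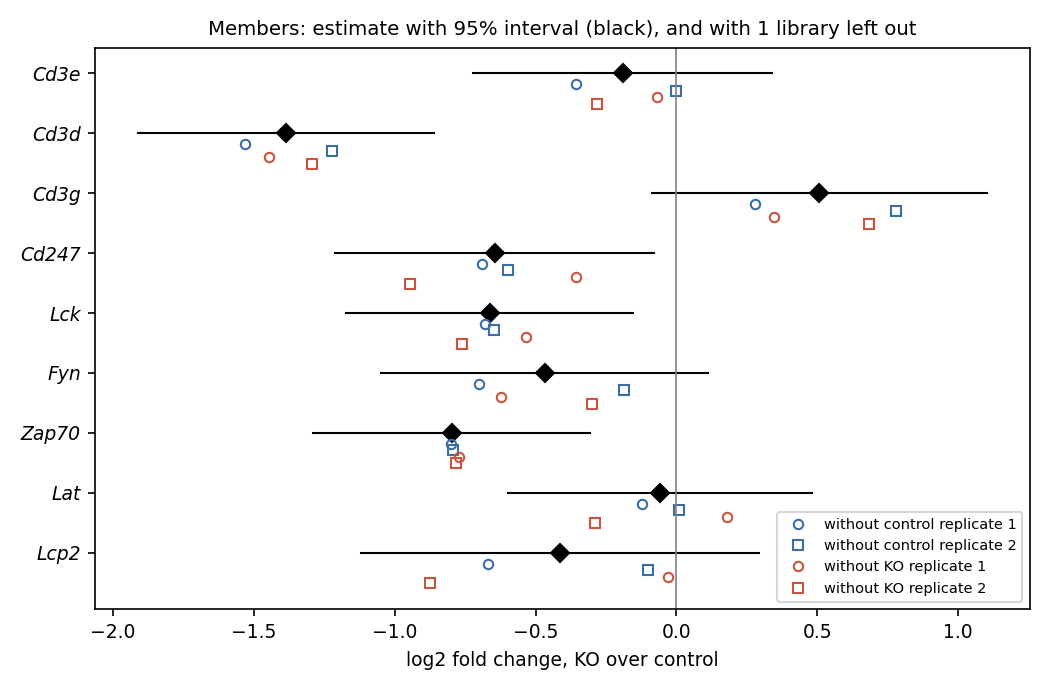
Log2 fold change (KO over control, horizontal axis) of each of the 9 genes, with the estimate from all 4 libraries as a black diamond and its 95% interval as a line; open symbols are the estimates with 1 library left out. The interval of Cd3d, -1.91 to -0.86, lies farthest from 0, Zap70 has the narrowest scatter of open symbols, and Lcp2 has the widest, from -0.87 to -0.03.

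Levels can be set side by side between genes only per length. Here CPM was divided by the merged exons of all GENCODE M21 transcripts of each gene (CPM per kb, mean ± SD, n = 2), because no source used here names the annotation that was counted. In the controls the order was Lck at 366 ± 5.64, Cd3g at 204 ± 49.7, Lat at 158 ± 9.97, Cd3e at 147 ± 25.6, Cd3d at 93.0 ± 13.9, Cd247 at 84.2 ± 3.81, Lcp2 at 64.4 ± 17.7, Zap70 at 40.1 ± 0.152 and Fyn at 35.8 ± 8.93 CPM per kb. Neighbours whose libraries overlapped in that order were Lat and Cd3e, Cd3d and Cd247, and Zap70 and Fyn. In the KO, Cd3g came first at 290.2 ± 52.8 CPM per kb, then Lck at 231 ± 21.7, Lat at 151 ± 32.1 and Cd3e at 129 ± 11.2. Cd247 followed at 53.9 ± 14.4, Lcp2 at 48.3 ± 18.7, Cd3d at 35.6 ± 3.29, Fyn at 25.9 ± 4.51 and Zap70 at 23.1 ± 0.286 CPM per kb. Overlapping neighbours in the KO were Lat and Cd3e, Cd247 and Lcp2, Lcp2 and Cd3d, and Fyn and Zap70. Cd3d thus stood 5th in the controls and 7th in the KO. With exons of the smaller GENCODE basic transcript set, chosen after the values were seen, these places of Cd3d were the same, but the order of the most abundant genes was not. The controls then had Cd3g at 652, Lck at 463, Cd3e at 410.5 and Lat at 350.3 CPM per kb. In the KO, Cd3g at 927 was followed by Cd3e at 359.7, Lat at 336 and Lck at 292 CPM per kb, and Zap70 at 30.7 stood above Fyn at 29.4. The order given first therefore holds for the exons of all transcripts only.

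The other genes of the pathway were described from lists by role. Of 54 tested genes outside the 9, 3 fell (Cd4, Cd8a and Cd5) and 0 rose, and their median log2 fold change was -0.41, against -0.04 over all tested genes, of which 0.181% fell and 0.270% rose. At an unadjusted p below 0.05, 22 were lower and 2 higher, against 6.91% and 6.97% of all tested genes. Leaving out KO replicate 1 gave 0 calls, KO replicate 2 gave 6, control replicate 1 gave 11 and control replicate 2 gave 6. DESeq2 called 14 lower and 2 higher, against 2.85% and 2.34% of the genes it tested, and 3 of the 9 (Cd3d, Lck and Zap70) lower.

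Of 16 downstream kinases and effectors, 0 passed edgeR's test, with 5 lower and 1 higher at an unadjusted p below 0.05, 3 lower and 1 higher by DESeq2, and a median log2 fold change of -0.29. Among the most abundant was Dgkz, which encodes a diacylglycerol kinase that limits Ras activation, at -0.12 ± 0.23 (edgeR, adjusted p = 0.882). Of 18 adaptors, 0 passed, with 8 lower and 0 higher at an unadjusted p below 0.05, 4 lower by DESeq2, and a median of -0.48. The most abundant were Themis, which encodes a regulator of SHP-1 needed for positive selection and is also in the DP marker list (819 and 1215 CPM against 267 and 511 CPM, -1.39 ± 0.34, adjusted p = 0.123), and Fyb, which encodes the adaptor ADAP, at -0.41 ± 0.23 (adjusted p = 0.483).

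Of 13 phosphatases and brakes 1 fell, Cd5, which encodes a surface attenuator of TCR signals, from 106 and 129.9 CPM to 25.1 and 29.6 CPM (-2.11 ± 0.25, adjusted p = 0.0152). That call ended without KO replicate 1 (-1.95, adjusted p = 0.101). With edgeR, 3 of the 13 were lower and 0 higher at an unadjusted p below 0.05. DESeq2 called 2 lower and 0 higher, and the median of this list was -0.20. Of 7 surface partners 2 fell, the coreceptor genes Cd4 (-2.09 ± 0.32, adjusted p = 0.0355) and Cd8a (-2.06 ± 0.34, adjusted p = 0.0442), at a list median of -1.37. At an unadjusted p below 0.05, 6 of the 7 were lower and 1 higher, and DESeq2 called 5 lower and 1 higher. The higher one, named after its values were seen, was Ptcra, the gene of the pre-TCR's invariant alpha chain that is also in the DN marker list, at 13.5 and 4.27 CPM in the controls, against 49.9 and 26.5 CPM in the KO (2.13 ± 0.55, adjusted p = 0.138 by edgeR). Without KO replicate 1 both calls ended, at -1.65 for Cd4 and -1.65 for Cd8a, and with library totals as the scaling both ended too. Lck, whose protein the coreceptors carry, had the smaller estimate of -0.66 given above, and the difference between Lck and the coreceptor genes was not tested.

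Relatives that serve the same roles mainly in other blood lineages had estimates of both signs. Of 10 tested, 1 rose, Fgr, a Src-family kinase gene best known from myeloid cells. It was at 14.1 and 9.23 CPM in the controls and at 54.9 and 55.3 CPM in KO 1 and KO 2 (log2 fold change 2.25 ± 0.32, adjusted p = 0.0250), where higher calls made up 0.270% of all tested genes. The call ended without KO replicate 1 (adjusted p = 0.116) and without KO replicate 2 (adjusted p = 0.0609). Beside it, the summed level of the 11 myeloid and dendritic markers was 31.1 and 43.1 CPM in the controls, against 37.4 and 58.7 CPM in the KO, and among them Csf1r was at 0 to 1.40 CPM and Lyz2 at 0.168 to 1.87 CPM. Itgam, the most abundant of them, had 14.2 and 20.3 CPM in the controls, against 23.4 and 41.2 CPM in the KO (log2 fold change 0.90 ± 0.37, unadjusted p = 0.0383, adjusted p = 0.332 by edgeR), the same side as Fgr, and its part in the Fgr result was not tested. Cd74, named after its values were seen, lay on the other side, at 7.31 and 6.69 CPM against 3.85 and 3.76 CPM (-0.88 ± 0.53, adjusted p = 0.519 by edgeR). Of the 9 tested markers of that list, KO libraries lay below the controls for 2 and above for 2 (24.0% and 22.8% of all tested genes). The list's median log2 fold change was -0.88. Named after its values were seen, Lyn, another Src-family kinase gene, had 4.29 ± 1.31 CPM against 20.3 ± 5.18 CPM (SD, n = 2), and its log2 fold change of 2.22 ± 0.44 did not pass the test (edgeR, adjusted p = 0.0729). Syk, also named after its values were seen, encodes the kinase related to ZAP-70 that is used with it by the pre-TCR. It was at 59.4 and 78.0 CPM in the controls and at 117 and 129 CPM in KO 1 and KO 2 (log2 fold change 0.84 ± 0.24, adjusted p = 0.180), with both KO libraries above both controls, the reverse of Zap70. The median of the 10 relatives was 0.14.

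**Figure D5:**
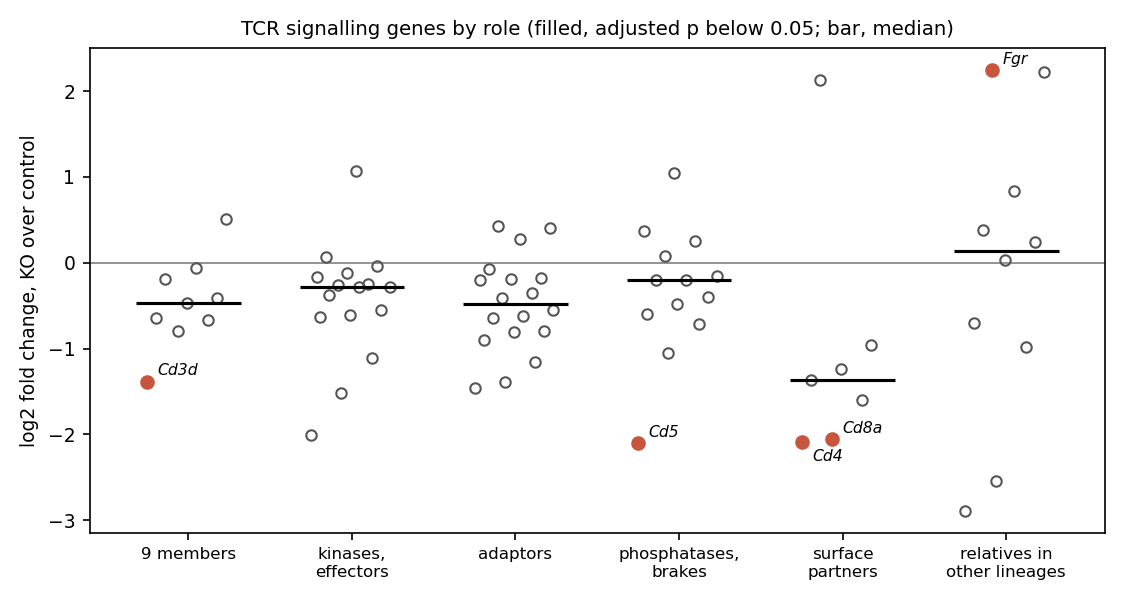
Log2 fold change (KO over control, vertical axis) of each tested gene, by role, with filled red points for genes past the test and a bar at each list's median. The medians are -0.47 for the 9 genes, -0.29 for kinases and effectors, -0.48 for adaptors, -0.20 for phosphatases and brakes, -1.37 for surface partners and 0.14 for relatives in other lineages.

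Genes with the most similar pattern were sought by the root-mean-square difference of log2 CPM, centred over the 4 libraries, among 8551 other genes of at least 10 CPM. For Cd3d they were Wdfy2 (difference 0.0966), Lpar6 (0.111) and Slc16a5 (0.121), whose log2 fold changes were -1.44, -1.31 and -1.26 and did not pass the test (adjusted p = 0.0804, 0.0664 and 0.0717). For Zap70 they were Mmd (0.0183), Pou6f1 (0.0301) and Bach1 (0.0460), and for Lcp2 Aktip (0.0390), Kctd18 (0.0409) and Dennd5a (0.0476). Among the 9 genes, Lck and Zap70 were each other's nearest in pattern (0.1001), as were Cd3e and Lat (0.133). Cd3g was the farthest from its nearest member, Cd3e, at 0.404, and Cd3d was 0.314 from its nearest, Zap70. With 4 libraries such likeness is a description only.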

How the data were processed

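Bulk RNA-seq counts of sorted DP thymocytes were used, 2 libraries per genotype. Total RNA from TRIzol extraction was made into libraries from 10 ng with a SMART-seq kit, per the labels' protocols. What the authors deposited are raw counts, 1 file per library, with a row for each gene symbol. Reads were aligned with HISAT2, per the file headers. Per the submitters' processing notes, featureCounts 2.0.8, HISAT2 2.2.1, cutadapt 4.0, the mm10 genome and edgeR 3.36.0 were used, in no stated role. No source used here gives the annotation, the strand setting or the handling of multiply matching reads. Reads without molecular identifiers are not independent molecules.

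Counts were tested in R 4.3.3 with edgeR 4.0.16 (filterByExpr, minimum count 10 and total 15; TMM; glmQLFit and glmQLFTest, genotype as the only term; Benjamini-Hochberg over 20389 genes, called at an adjusted p below 0.05). Standard errors are the log2 fold change over the square root of F, and 95% intervals use the moderated degrees of freedom (median 9.19, of which 2 residual). The biological coefficient of variation was 57.4%. Alternatives were DESeq2 1.42.0, other scalings and filters, edgeR's newer quasi-likelihood setting, the replicate number as a block, and leaving out each library. No library was a duplicate of another: the chi-square of the closest pair was 51.9 per degree of freedom.

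The genes, the lists and the alternatives were chosen with earlier results of these data known. Named were the 9 genes, the genes within 100 kb of the CD3 cluster, up to 3 called genes per list (otherwise the 2 most abundant) and the 3 genes nearest in pattern to the gene with the smallest p of each role. A gene that this rule names is not reported here. Gene spans and promoter sequences are from RefSeq on GRCm38.p6, the same assembly as mm10, and exon lengths from GENCODE M21 on the same assembly. A log2 prior of 0.5 CPM was used for pattern likeness.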

Additional observations from a re-analysis of the deposited data

How the results depend on the processing

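The count of all called genes, 92, was 71 to 119 with other scalings and the newer quasi-likelihood setting, but 920 with no filter, 231 at a mean of at least 5 CPM, 1039 with DESeq2 and 9 to 619 with 1 library left out. Of the 9 genes, 1 was called (Cd3d); the count was 0 with library totals only, 3 with DESeq2 (Cd3d, Lck and Zap70) and 0 to 1 with 1 library left out, being 0 without KO replicate 1 or 2. Of the other 54 TCR genes 3 were called, against 1 with library totals only, 17 with no filter, 9 at a mean of at least 5 CPM, 16 with DESeq2, 5 with the newer setting and 0 to 11 with 1 library left out. With the replicate number as a block, the counts were 1599 for all genes, 4 for the 9 genes (Cd247, Cd3d, Lck and Zap70) and 24 for the other TCR genes. The numbers were not shown to pair the samples (correlation of the replicate differences over genes 0.0731), so these counts are not evidence of pairing. Lat, at -0.29 to 0.18 with 1 library left out, reversed sign without control replicate 2 (0.01) and without KO replicate 1 (0.18). The log2 ratio of Fyn to Lck ranged from -0.063 to 0.49 with 1 library left out, including -0.03 without control replicate 1. The ranges were -1.38 to -1.01 for Cd3d to Cd3e, 0.42 to 0.98 for Cd3g to Cd3e, -0.67 to -0.30 for Cd247 to Cd3e, -0.59 to -0.15 for Lcp2 to Lat and -1.995 to -1.80 for Cd3d to Cd3g. In these ratios, other than Fyn to Lck, no library left out turned the sign. Each of the 9 genes had at least 1423 counts in every library, and 2 libraries per genotype limit the precision.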
